A study of Homo sapiens with 12 samples.

Results

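A set of 42 very long genes for neuronal cell adhesion, axon guidance, synapse scaffolds and related functions was followed in 2 neuroblastoma cell lines after inhibition of CDK12 and CDK13. The genes were chosen by symbol, with earlier results of these data known. Of the 42, 40 had at least 1 probe set of their own on the array, out of 18244 genes measured, and MAGI2 and CDH13 had none and have no value here. The 40 genes had 150 probe sets, and each gene was read by its brightest one, averaged over the 12 arrays. In the RefSeq annotation of GRCh38.p14 their spans ran from 634 kb for ESRRG to 2474 kb for RBFOX1, with a median of 1253 kb against 25.7 kb over 18201 genes, and 31 of the 40 spanned at least 1 Mb.

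Genes of this size consist almost entirely of introns, and RNA polymerase II needs a long time to travel from their promoters to their ends. CDK12 and CDK13 are cyclin K-dependent kinases that phosphorylate the tail of elongating RNA polymerase II, so genes with long bodies and many intronic cleavage and polyadenylation signals are of interest when these kinases are inhibited. Many of the longest human genes are used in the nervous system: they code for adhesion proteins that join neurons at synapses, receptors that steer axons, and scaffolds that hold receptors in place. Several lie in common fragile sites, regions that break readily under replication stress. Neuroblastoma is a tumour of the developing sympathetic nervous system, and its cells express part of this repertoire.

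RNA was measured on 12 PrimeView arrays, whose probes lie mostly near the 3′ ends of transcripts. Kelly and IMR-32, established human neuroblastoma lines, were treated for 6 h with THZ531, which binds CDK12 and CDK13 covalently, at 100 nM or 400 nM or with its solvent DMSO, which gave 6 groups of 2 arrays that the labels call biological duplicates. No group carried another agent or an engineered allele per the labels, and each line is a single genetic background. Values are log2 intensities on the authors' scaling to ERCC spike-in RNAs, which keeps a shift shared by most genes. Changes are differences of group means on the log2 scale ± SE from limma (n = 2 arrays per group), and a gene was called where the Benjamini-Hochberg adjusted p over all 18244 genes was under 0.05. The 2 arrays of each group limit the precision, and a two-sided exact permutation test of 2 against 2 cannot go below p = 0.333. The labels do not say that duplicates came from separate cultures, and p-values measure only the spread between these arrays.

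Median intensity per array ran from 55.9 to 131.8. The 2 arrays of 3 treated groups differed widely: the median gene, against the DMSO mean of its line, stood at −0.50 and −0.056 in IMR-32 at 100 nM, at −0.17 and −0.48 in Kelly at 100 nM, and at −0.34 and −0.16 in Kelly at 400 nM, against −0.63 and −0.75 in IMR-32 at 400 nM. Hybridisation controls, added after the RNA was labelled, had mean log2 intensities of 10.51 and 10.53 on the 400 nM arrays of IMR-32 against 10.85 and 11.31 in its DMSO arrays, and from 10.55 to 11.16 on the other treated arrays, and their part in the changes was not tested. All 9 measured adrenergic neuroblastoma markers had DMSO means above 7 in both lines, while 0 of 6 mesenchymal, 0 of 4 epithelial and 0 of 3 leukocyte markers did. Of 3 glial markers, GFAP lay just above 7 in both, at 7.18 in Kelly and 7.35 in IMR-32, and its part in the results was not tested. In such bulk samples fewer cells of a type and less RNA per cell cannot be told apart.

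The 40 genes do not each have a single start. RefSeq lists 100 promoter windows of 300 bases (250 before and 50 after a start) for 35 of them, 11 with 1 start and 24 with several, up to 9 for DLG2. In 15 of the 35 the start nearest the gene's end lay within 500 kb of it. For PDE4D the distance from start to end ran from 30.9 kb to 1527 kb over 8 starts, and for ESRRG from 220 kb to 634 kb over 8 starts. A probe set near the 3′ end reads transcripts from every start, and which start these cells used was not measured. Among the genes above a DMSO level of 7 in IMR-32, only AUTS2, LSAMP and CNTNAP2 had 1 listed window that lay at the outer end of the gene, so for these the listed promoter and the full span belong together. Their windows are shown in GRCh38.p14, 5′ to 3′ on the gene's strand, because AUTS2 and LSAMP were called lower at 400 nM in IMR-32 and CNTNAP2 was not. AUTS2 lies at chr7:69598225-69598524 on the plus strand, LSAMP at chr3:116445438-116445737 on the minus strand and CNTNAP2 at chr7:146116551-146116850 on the plus strand. Capitals mark the GC box GGGCGG or its reverse complement CCGCCC.
AUTS2: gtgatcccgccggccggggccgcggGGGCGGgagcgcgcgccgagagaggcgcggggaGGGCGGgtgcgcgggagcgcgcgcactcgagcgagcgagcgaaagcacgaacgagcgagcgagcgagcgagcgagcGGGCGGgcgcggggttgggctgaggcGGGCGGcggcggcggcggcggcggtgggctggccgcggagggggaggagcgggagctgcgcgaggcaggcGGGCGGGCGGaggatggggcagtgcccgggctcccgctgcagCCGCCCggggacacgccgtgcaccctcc
LSAMP: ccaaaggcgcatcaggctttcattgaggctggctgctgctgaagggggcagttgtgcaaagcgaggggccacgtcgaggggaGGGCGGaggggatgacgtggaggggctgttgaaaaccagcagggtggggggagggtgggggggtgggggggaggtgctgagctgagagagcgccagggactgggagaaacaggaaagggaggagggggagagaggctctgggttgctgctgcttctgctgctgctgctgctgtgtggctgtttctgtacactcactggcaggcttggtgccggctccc
CNTNAP2: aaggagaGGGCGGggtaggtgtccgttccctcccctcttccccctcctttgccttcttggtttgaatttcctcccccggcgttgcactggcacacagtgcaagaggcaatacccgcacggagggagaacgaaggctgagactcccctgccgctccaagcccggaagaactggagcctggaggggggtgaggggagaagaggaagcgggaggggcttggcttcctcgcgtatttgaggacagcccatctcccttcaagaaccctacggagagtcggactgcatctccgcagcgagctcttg
The AUTS2 window held 7 such matches, counting overlapping ones, and 55 CpG dinucleotides, the LSAMP window 1 match and 8 CpG, and the CNTNAP2 window 1 match and 16 CpG. A match to this motif on either strand was present in 45.0% of all 35116 listed human windows and in 40 of the 100 windows of the long genes. The letters TATAAA, or TTTATA on the other strand, were in none of the 3 printed windows, in 8 of the 100 windows and in 11.5% of all windows. The windows thus differed in their base content, and a match is a description of the letters only.

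In DMSO, 17 of the 40 genes had a mean log2 intensity above 7 in Kelly and 14 in IMR-32, 12 of them in both, while 21 lay below 7 in both lines. Genes just inside this level were RBFOX1 and ROBO2 in Kelly, at 7.32 and 7.35, and RBFOX1 and DPP6 in IMR-32, at 7.21 and 7.24. Just outside were KCNIP4 and NTM in Kelly, at 6.81 and 6.44, and WWOX and TENM2 in IMR-32, at 6.61 and 6.57. The DMSO arrays that set this level also enter every change from DMSO, so level and change are not independent.

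The lines differed in DMSO in 5 of the 40 genes by limma: 4 were higher in Kelly and 1 was lower, where 1.98% of all 18244 genes were called higher and 3.02% lower. CNTNAP2, a neurexin-related adhesion protein that clusters potassium channels along axons, had log2 intensities of 11.11 and 11.16 in Kelly and 7.57 and 7.84 in IMR-32. Every Kelly array lay above every IMR-32 array, a difference of 3.43 ± 0.44 (adjusted p = 0.00214). DPP6, an accessory subunit of Kv4 potassium channels, had 9.53 and 9.56 in Kelly and 7.27 and 7.22 in IMR-32, higher by 2.30 ± 0.45 (adjusted p = 0.0198). KCNIP4, a calcium-binding partner of the same channels, had 6.85 and 6.78 against 4.87 and 4.91, higher by 1.92 ± 0.36 (adjusted p = 0.017). It stayed below 7 in both lines. DPP10, a further accessory subunit of these channels, differed by 0.13 ± 0.18 and was not called (adjusted p = 0.834). FHIT, a diadenosine triphosphate hydrolase whose gene spans a common fragile site, had 7.51 and 7.76 in Kelly and 6.20 and 6.43 in IMR-32, higher by 1.32 ± 0.23 (adjusted p = 0.0116). LSAMP, a GPI-anchored adhesion protein of limbic neurons, went the other way, with 6.16 and 6.35 in Kelly and 7.89 and 8.55 in IMR-32, lower in Kelly by 1.96 on the log2 scale ± 0.33 (adjusted p = 0.00984). Among the uncalled genes, NLGN1 differed by 1.28 ± 0.31 (adjusted p = 0.0546) and PTPRD by −1.88 ± 0.65 (adjusted p = 0.179). These calls rest on few arrays. Leaving out any 1 DMSO array, so that its group kept 1, gave fewer calls, among the 40 and among all genes. A fit to the 4 DMSO arrays alone called 21, 8 lower in Kelly and 13 higher, where 18.4% and 6.55% of all genes were.

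At 400 nM in IMR-32, 9 of the 40 genes fell and 0 rose by limma, where 39.0% of all genes fell and 0.395% rose. The falls ran from −4.92 for the nuclear receptor gene ESRRG to −0.57 for the receptor kinase gene ERBB4, with adjusted p from 0.0174 to 0.0472. Of the 14 genes above 7 in DMSO, 7 fell (50.0%), against 62.0% of the 9970 genes above 7, and of the 26 below 7, 2 fell, against 946 of 8274. The median change of the 14 was −1.10, against −1.35 over the 9970 genes, differences that were not tested. They depend on the level chosen: above 8, 6 of 9 genes fell (66.7%), against 63.9% of 7713 genes, with a median change of −1.94 against −1.46. Both treated arrays lay below both DMSO arrays in all 14, which was so for 95.4% of the genes above 7, and in 32 of the 40, against 76.6% of all genes. The uncalled genes among the 14 had changes from −1.94 for TENM3 to −0.40 for CTNNA2. Without either of the DMSO or either of the 400 nM arrays of this line, 0 genes of any kind were called, with 7 to 11 of the 40 lower at an unadjusted p under 0.05, where 29.1% to 44.9% of all genes were, and a fit to the 4 arrays of the comparison alone called 19 of the 40 lower, where 54.9% of all genes were. With the level of 7 read from all arrays of the line, which 11 of the genes passed, the median change was −1.19. With each gene's probe sets averaged in place of the brightest, 8 of the 40 were called lower, where 41.2% of all genes were. Only 6 of these 8 were among the 9 above, and PDE4D, LSAMP and ERBB4 lost their calls (limma, adjusted p = 0.124, 0.0771 and 0.548).

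**Figure D1:**
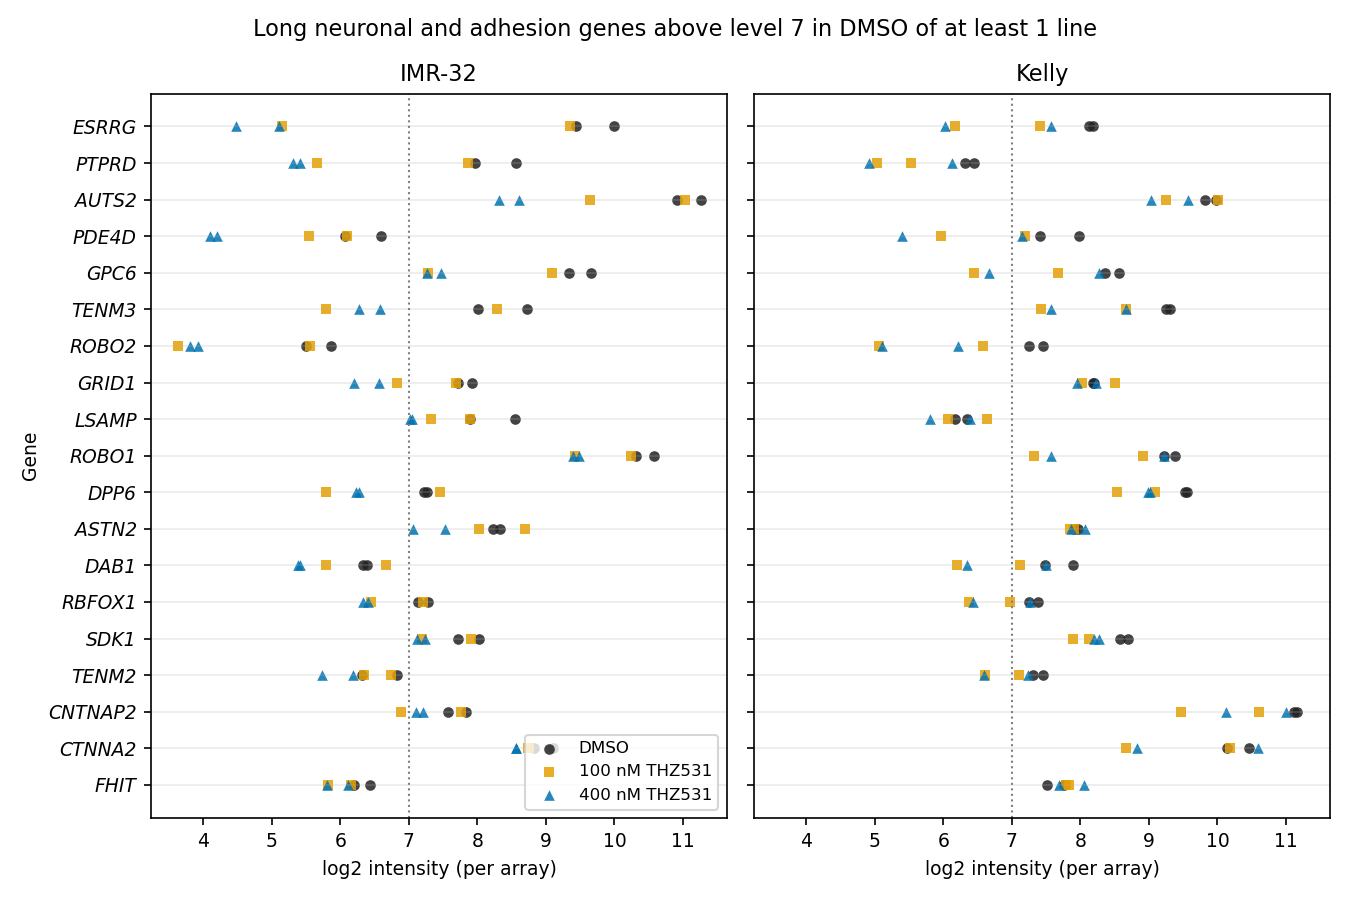
Log2 intensity of the 19 genes with a DMSO mean above 7 (dotted line) in at least 1 line, with 1 point per array for DMSO, 100 nM and 400 nM THZ531. In IMR-32 both 400 nM arrays lay below both DMSO arrays in all 14 genes above 7 there, while the 2 arrays at 100 nM, and the 2 of each dose in Kelly, often lay far apart.

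Among the nuclear regulators, 2 of 3 fell. ESRRG, an orphan nuclear receptor that controls oxidative metabolism genes, is read by probe set 11729079_s_at and lies on chromosome 1. It had log2 intensities of 9.43 and 9.99 in DMSO and 4.48 and 5.11 at 400 nM, with no overlap, a fall of −4.92 ± 1.14 (adjusted p = 0.018). Its treated values lay below the median of all probe sets (6.33) and no detection call was used here, so they are not shown to be above background, and linear folds are given only where both group means were above 7. AUTS2, a regulator of neuronal transcription linked to Polycomb complexes and read by 11737962_a_at, lies on chromosome 7 and spans 1195 kb. It had 10.91 and 11.26 in DMSO and 8.61 and 8.32 at 400 nM, a 6.13-fold fall (−2.62 ± 0.45, adjusted p = 0.0174). Of its 3 other probe sets, 2 had a change of the same sign. RBFOX1, a neuronal splicing regulator and the longest gene of the 40, had 7.14 and 7.28 in DMSO and 6.33 and 6.41 at 400 nM. Its groups did not overlap, but the change of −0.85 ± 0.35 was not called (adjusted p = 0.0814).

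Among the 6 synaptic adhesion genes, PTPRD was the 1 that fell. PTPRD, a receptor tyrosine phosphatase that organises presynaptic terminals, is read by 11721790_s_at, lies on chromosome 9 and spans 2299 kb. It had 7.96 and 8.57 in DMSO and 5.31 and 5.41 at 400 nM, a fall of −2.90 ± 0.65 (adjusted p = 0.0175) to treated values below 6.33, and all 3 of its other probe sets changed in the same direction. CNTNAP2 had 7.57 and 7.84 in DMSO and 7.21 and 7.11 at 400 nM. That change of −0.54 ± 0.44 was not called (adjusted p = 0.339), and the gene spans 2304 kb, close to PTPRD. The other 4 lay below 7: NRXN3 is a presynaptic receptor, NLGN1 a postsynaptic ligand of neurexins, and CNTN4 and CNTN5 are contactins, GPI-anchored adhesion proteins of axons. Their changes ran from −0.44 for NRXN3 to 0.08 for NLGN1.

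Of the 4 IgLON genes, which code for GPI-anchored adhesion proteins of the neuronal surface, LSAMP fell. It had 7.89 and 8.55 in DMSO and 7.01 and 7.05 at 400 nM (−1.19 ± 0.33, adjusted p = 0.0254), and 2 of its 3 other probe sets had the same sign. NEGR1, OPCML and NTM lay below 7 and had changes from −0.54 for NTM to 0.02 for NEGR1. Of the 2 glypicans, heparan sulphate proteoglycans that bind growth factors, GPC6 fell. It had 9.34 and 9.66 in DMSO and 7.26 and 7.46 at 400 nM, a 4.39-fold fall (−2.14 ± 0.67, adjusted p = 0.0358), and 2 of its 3 other probe sets had the same sign. GPC5 lay below 7, with a difference of −0.19 ± 0.47.

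None of the 3 axon guidance receptors was called. ROBO1, a receptor for Slit proteins that repel axons, had 10.31 and 10.58 in DMSO and 9.48 and 9.39 at 400 nM, below DMSO in both arrays (−1.005 ± 0.61, adjusted p = 0.209). Its paralogue ROBO2 lay below 7, with 5.86 and 5.50 in DMSO and 3.80 and 3.92 at 400 nM (−1.82 ± 0.67, adjusted p = 0.0581). DCC, a netrin receptor, lay below 7, with a difference of −0.013 ± 0.31. Of the cadherin and catenin genes, CTNNA2, the neuronal alpha-catenin that links cadherins to actin, had 8.82 and 9.10 in DMSO and 8.56 and 8.56 at 400 nM. Its change of −0.40 ± 0.59 was the smallest of the 14 genes above 7 and was not called (adjusted p = 0.598). CTNNA3 and PCDH15, which lay below 7, had −0.57 ± 0.22 (adjusted p = 0.0696) and −0.79 ± 0.38 (adjusted p = 0.129).

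Among the teneurins, astrotactin and sidekick, ASTN2 fell. ASTN2, a membrane protein that regulates adhesion during glia-guided neuronal migration in mice, had 8.33 and 8.22 in DMSO and 7.05 and 7.53 at 400 nM (−0.98 ± 0.27, adjusted p = 0.0234). TENM3, a teneurin that matches synaptic partners in mice, had 8.01 and 8.72 in DMSO and 6.28 and 6.58 at 400 nM. The groups did not overlap, but the gene was not called (−1.94 ± 0.75, adjusted p = 0.0683). SDK1, an adhesion protein of the immunoglobulin superfamily, had a difference of −0.69 ± 0.26 (adjusted p = 0.0624), and TENM2, below 7, one of −0.62 ± 0.32 (adjusted p = 0.15).

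Among the 5 channel, pump and receptor partners, GRID1 fell. It codes for a delta-type glutamate receptor that joins synapses through cerebellins, and had 7.72 and 7.92 in DMSO and 6.20 and 6.56 at 400 nM, a fall of −1.43 ± 0.31 (adjusted p = 0.0175). DPP6 had 7.27 and 7.22 in DMSO and 6.22 and 6.27 at 400 nM (−0.998 ± 0.45, adjusted p = 0.104), again without overlap and without a call. DPP10, KCNIP4 and NKAIN2, which interacts with the sodium pump, lay below 7. KCNIP4 was the only gene of the 40 with both treated arrays above both DMSO arrays, at 5.09 and 5.00 against 4.87 and 4.91, a change of 0.16 ± 0.36 (adjusted p = 0.746), and 0 of its 3 other probe sets had that sign.

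The receptor kinase and the phosphodiesterase both fell from levels below 7. PDE4D, which degrades cAMP, is read by 11724446_a_at and had 6.06 and 6.59 in DMSO and 4.20 and 4.10 at 400 nM, a fall of −2.18 ± 0.58 (adjusted p = 0.0232). Of its 6 other probe sets, 5 had the same sign. ERBB4, a receptor for neuregulins, had 5.34 and 5.23 in DMSO and 4.73 and 4.70 at 400 nM (−0.57 ± 0.20, adjusted p = 0.0472), and 1 of its 2 other probe sets had the same sign. The scaffolds and adaptors DLG2, a postsynaptic scaffold, and DAB1, the adaptor of reelin signalling, had −0.17 ± 0.27 and −0.96 ± 0.45 (adjusted p = 0.627 and 0.115). The large receptors CSMD1, CSMD3 and LRP1B, all below 7, had differences from −0.54 for LRP1B to 0.02 for CSMD3. The fragile-site genes FHIT, WWOX, an oxidoreductase, and MACROD2, which removes ADP-ribose from proteins, had differences from −0.35 for FHIT to −0.23 for WWOX, and none of these 8 genes was called.

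The direction of part of these changes depends on the scaling. Setting every array to the same median over all probe sets moved the median gene from −0.67 to 0.37, and quantile normalization moved it to 0.18. ESRRG, PTPRD, AUTS2 and PDE4D were called lower under both, at −3.88, −1.86, −1.57 and −1.13 after median centring and at −3.99, −1.81, −1.45 and −1.65 after quantile normalization. GPC6 kept its sign without a call, at −1.09 and −0.64, as did GRID1, at −0.39 and −0.10. ASTN2 turned to 0.058 and 0.52 and ERBB4 to 0.48 after centring, with −0.11 after quantile normalization, and LSAMP had −0.15 and 0.30, none of them called. After centring, 4 of the 40 genes were called lower and 8 higher, where 15.8% of all genes were lower and 18.7% higher.

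In Kelly at 400 nM, 0 of the 40 genes and 0% of all 18244 genes were called by limma. At an unadjusted p under 0.05, 3 of the 40 were lower and 1 was higher, where 6.45% and 0.745% of all genes were. The 17 genes above 7 had a median change of −0.58, against −0.61 over the 9520 genes above 7 in Kelly, and 10 of them had both treated arrays below both DMSO arrays, against 67.8% of genes at this level. The 2 arrays gave medians of −1.01 and −0.19 for the 17 genes, so the mean stands between unlike arrays. ROBO2, above 7 in this line, had 7.45 and 7.26 in DMSO and 5.11 and 6.21 at 400 nM (−1.70 ± 0.67, adjusted p = 0.503). PDE4D had 7.99 and 7.42 in DMSO and 5.39 and 7.15 at 400 nM (−1.43 ± 0.58, adjusted p = 0.503). For both genes the treated arrays lay below DMSO, but more than 1 log2 unit apart from each other. ESRRG had 8.18 and 8.13 in DMSO and 6.02 and 7.57 at 400 nM (−1.36 ± 1.14, adjusted p = 0.589), and TENM3 had 9.31 and 9.25 in DMSO and 7.56 and 8.67 at 400 nM (−1.17 ± 0.75, adjusted p = 0.513). GPC6 had a difference of −0.99 ± 0.67, ROBO1 of −0.91 ± 0.61 and DAB1 of −0.77 ± 0.45, and each had 1 treated array close to DMSO and 1 at least 1 log2 unit below it.

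Other genes above 7 in Kelly lay closer to DMSO at 400 nM, or on both sides of it. ASTN2 had 7.96 and 7.90 in DMSO and 8.07 and 7.86 at 400 nM, GRID1 had 8.18 and 8.19 against 7.95 and 8.22, and FHIT had 7.51 and 7.76 against 8.05 and 7.68. In all 3 the groups overlapped. AUTS2, at 9.98 and 9.82 in DMSO, had 9.03 and 9.57 at 400 nM (−0.60 ± 0.45, adjusted p = 0.547). CNTNAP2 had 11.11 and 11.16 in DMSO and 10.13 and 10.99 at 400 nM (−0.58 ± 0.44, adjusted p = 0.557), and CTNNA2 had 10.45 and 10.15 against 8.83 and 10.60, 1 array far below and 1 above DMSO. DPP6, TENM2, RBFOX1 and SDK1 had differences of −0.54, −0.46, −0.47 and −0.39, and PTPRD and LSAMP, below 7 in this line, of −0.86 and −0.16. The 1 gene higher at an unadjusted p under 0.05 was CSMD1, a large complement-regulating receptor below 7, named after its values were seen. It had 5.79 and 5.95 in DMSO and 6.77 and 6.94 at 400 nM (0.98 ± 0.21, adjusted p = 0.503), and 0 of its 2 other probe sets had that sign. Leaving out 1 array of each of the 3 groups with unlike arrays, chosen after the values were seen, moves these counts far: without replicate 2 of Kelly at 100 nM, Kelly at 400 nM and IMR-32 at 100 nM, 17 of the 40 were called lower in Kelly at 400 nM and 1 higher, where 33.4% of all genes were lower and 0.614% higher. Without replicate 1 of the same groups 1 was lower and 1 higher, where 7.13% of all genes were lower and 0.471% higher.

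**Figure D2:**
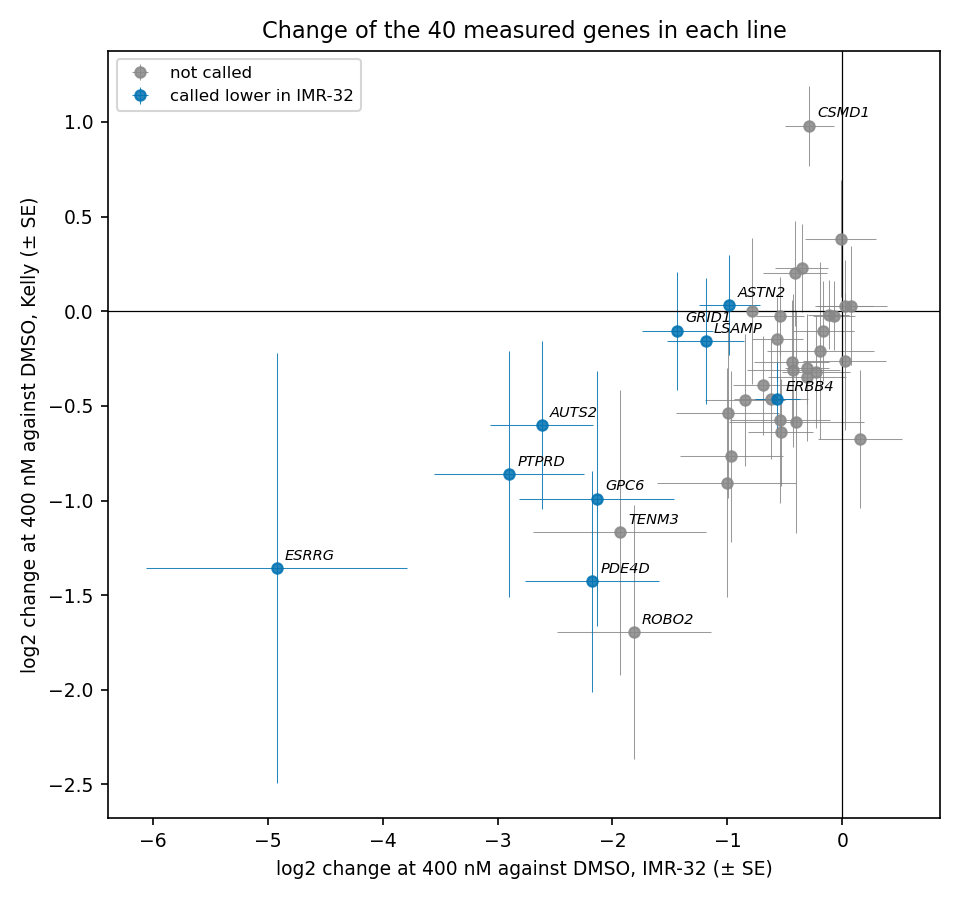
Log2 change at 400 nM THZ531 against DMSO (± SE) of the 40 genes in IMR-32 (x axis) and in Kelly (y axis), with genes called lower in IMR-32 in blue and the others in grey. ESRRG, PTPRD, AUTS2, PDE4D and GPC6 lay at −2.14 or below in IMR-32 and between −1.43 and −0.60 in Kelly, where none was called.

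The effect of 400 nM was not shown to differ between the lines for any of the 40 genes. The difference between the changes, Kelly minus IMR-32, was tested directly and called 0 of the 40 and 0% of all genes, with 4 of the 40 higher at an unadjusted p under 0.05, where 10.3% of all genes were. These were AUTS2 (2.01 ± 0.63), GRID1 (1.33 ± 0.44), CSMD1 (1.27 ± 0.30) and ASTN2 (1.02 ± 0.38), each with an adjusted p of 0.449. The largest difference was that of ESRRG, at 3.56 ± 1.61 (adjusted p = 0.449). CTNNA2, CNTNAP2 and ROBO1 differed by −0.18 ± 0.83, −0.03 ± 0.62 and 0.10 ± 0.86, so for these a difference of either sign lies within the error. Without the 3 arrays named above 2 of the 40 were called lower and 7 higher in this test, where 1.39% and 14.1% of all genes were, and without the other array of each of those groups 0 lower and 10 higher, where 0.307% and 33.3% were.

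At 100 nM, 0 of the 40 genes and 0% of all genes were called in either line, and the 2 arrays of each group differed. At an unadjusted p under 0.05, 1 of the 40 was lower in IMR-32, where 3.96% of all genes were, and in Kelly 6 were lower and 2 higher, where 9.94% and 0.745% were. In IMR-32 the 14 genes above 7 had a median change of −0.61, with −1.01 in replicate 1 and −0.11 in replicate 2. ESRRG had 5.15 in replicate 1 and 9.36 in replicate 2, against 9.43 and 9.99 in DMSO, so 1 array was near the 400 nM arrays and 1 near DMSO. The same split was seen for PTPRD, at 5.65 and 7.87, for TENM3, at 5.80 and 8.29, and for GPC6, at 7.28 and 9.09. AUTS2 had 9.65 and 11.03, so that replicate 1 lay between DMSO and 400 nM. ASTN2 had 8.03 and 8.70 at 100 nM and overlapped DMSO. Without replicate 2 of this group 8 of the 40 were called lower, where 27.5% of all genes were, and without replicate 1 0 were called. Both arrays lay below both DMSO arrays in 7 of the 14 genes above 7, against 33.8% of the genes at this level.

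In Kelly at 100 nM the 17 genes above 7 had a median change of −0.88, against −0.52 over the 9520 genes at this level, with −0.45 in replicate 1 and −1.49 in replicate 2. Over all genes above 7 these arrays had −0.21 and −0.80. CTNNA2 had 10.18 and 8.66 against 10.45 and 10.15 in DMSO, ROBO1 8.91 and 7.33 against 9.38 and 9.22, and CNTNAP2 10.61 and 9.47 against 11.11 and 11.16. The lower array was replicate 2 in each. TENM3 had 8.66 and 7.42 and ROBO2 6.58 and 5.06, below DMSO in both arrays. Both arrays lay below both DMSO arrays in 12 of the 17 genes, against 61.3% of genes at this level. CSMD1, at 5.79 and 5.95 in DMSO, had 7.45 and 7.05 without a call (1.38 ± 0.21, adjusted p = 0.426). The lowest medians of the 17 genes in Kelly were thus in replicate 2 at 100 nM and replicate 1 at 400 nM. Without replicate 2 of the 3 groups above 0 of the 40 were called lower at 100 nM and 1 higher, where 3.97% and 0.713% of all genes were, and without replicate 1 of those groups 16 lower and 2 higher, where 37.1% and 0.428% were.

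**Figure D3:**
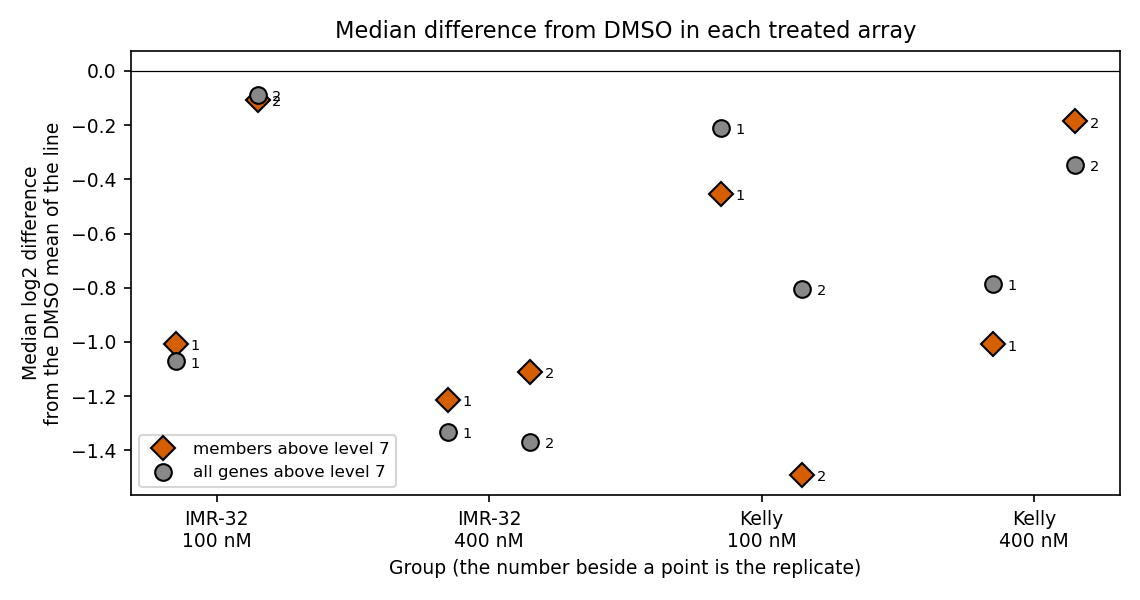
Median log2 difference from the DMSO mean of the line in each treated array, for the long genes above 7 (diamonds, 14 in IMR-32 and 17 in Kelly) and for all genes above 7 (circles), with the replicate number beside each point. The 2 arrays of IMR-32 at 400 nM gave −1.21 and −1.11 for the long genes, while those of the other 3 groups differed by more than 0.8.

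The step from 100 to 400 nM called 0 of the 40 genes in either line, where 1 gene of all 18244 (0.00548%) was called lower in IMR-32 and 0 in Kelly. In IMR-32, 4 of the 40 were lower at an unadjusted p under 0.05, where 19.5% of all genes were. AUTS2 had a step of −1.87 ± 0.45 (adjusted p = 0.186), PDE4D of −1.67 ± 0.58 (adjusted p = 0.215), ASTN2 of −1.07 ± 0.27 (adjusted p = 0.188) and GRID1 of −0.87 ± 0.31 (adjusted p = 0.218). In AUTS2, PDE4D, ASTN2 and GRID1 both 400 nM arrays lay below both 100 nM arrays. This was also so in others of the 40, such as ESRRG and PTPRD, and was not counted over all genes. The step in IMR-32 was negative in 35 of the 40 and in 16813 of all 18244 genes. In Kelly 0 of the 40 passed an unadjusted p under 0.05 in either direction, where 0.904% of all genes were lower and 2.11% higher. Without replicate 2 of the 3 groups above, 2 of the 40 were called lower in IMR-32 and 9 in Kelly, where 5.84% and 20.6% of all genes were. Without replicate 1 of those groups 15 were lower and 1 higher in IMR-32, where 49.6% and 0.959% of all genes were, and 12 were higher in Kelly, where 21.4% were.

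Span and change were also set side by side. Over the 14 genes above 7 in IMR-32, Spearman's rho between span and change at 400 nM was 0.28, and over the 17 in Kelly it was −0.22, given as descriptions over genes that share their arrays. ESRRG, with the shortest span of the 40, had the largest fall in IMR-32, and RBFOX1, with the longest, had −0.85. Spans here run from the outermost annotated start, and several genes have starts much nearer the end. Other genes with a span of at least 500 kb are the nearest group by size: 51 of 104 above 7 in IMR-32 fell (49.0%), with a median of −1.41, against 50.0% and −1.10 for the 14. Among genes above 7 other than the 40, the median change in IMR-32 was −0.81 under 10 kb, −1.25 from 10 to 30 kb, −1.61 from 30 to 100 kb, −1.73 from 100 to 200 kb and −1.63 from 200 to 500 kb. The share that fell was 49.7% under 10 kb, 67.8% from 100 to 200 kb and 49.0% at 500 kb and more. The lowest median was thus that of 100 to 200 kb, and the 14 long genes at −1.10 lay between it and that of the shortest genes. Above a level of 8 this was not so: the 9 long genes had −1.94, against −0.92 under 10 kb, −1.85 from 100 to 200 kb and −1.53 for other genes of 500 kb and more. In Kelly the medians followed the same order, from −0.27 under 10 kb to −0.81 from 100 to 200 kb and −0.68 at 500 kb and more, with −0.58 for the 17. These medians are all for 400 nM. At 100 nM the lowest median of the other genes was from 200 to 500 kb, at −0.87 in IMR-32 and −0.86 in Kelly. There the long genes above 7 had −0.61 in IMR-32 and −0.88 in Kelly.

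**Figure D4:**
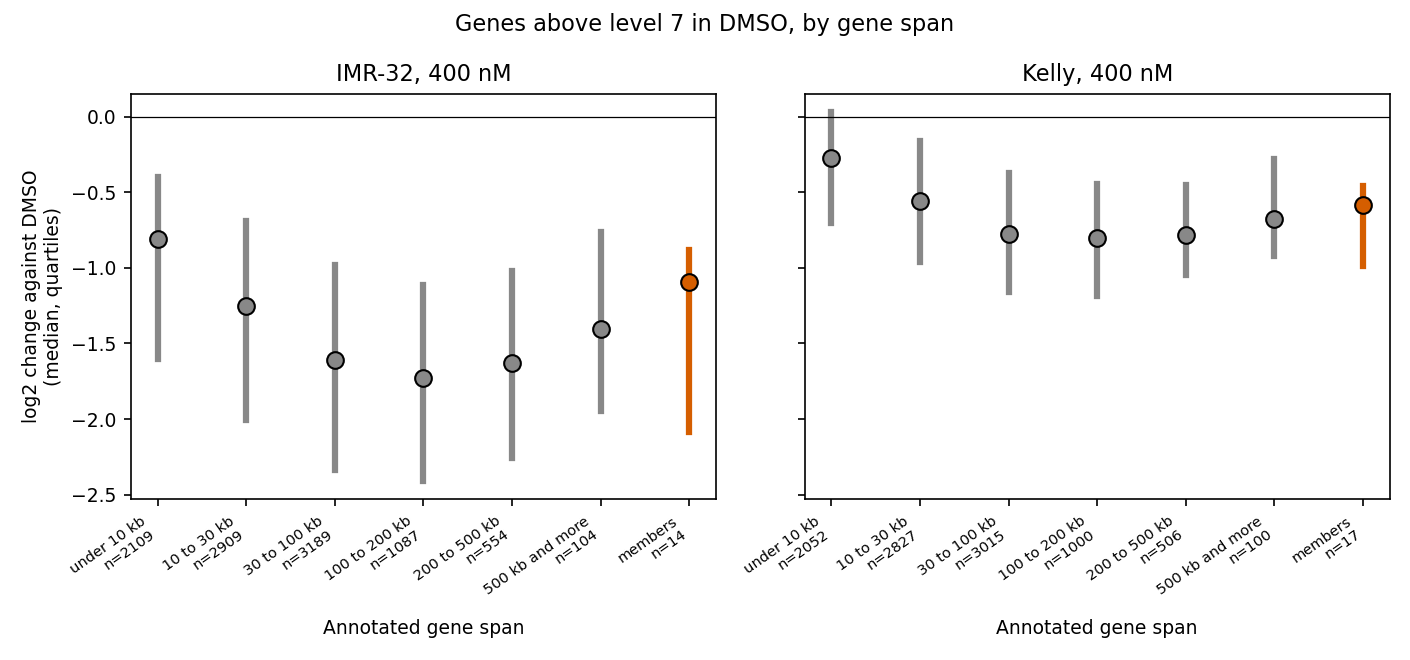
Median log2 change at 400 nM against DMSO (points) with quartiles (bars) for genes above 7 in DMSO in IMR-32 (left) and Kelly (right), by annotated span, with the very long neuronal and adhesion genes in orange and other genes in grey. The lowest grey median in IMR-32 was −1.73 at 100 to 200 kb, and the long genes had −1.10.

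Other genes of the same systems fell as well. Of 34 measured ligands and partners, such as Slit proteins, neuregulins, latrophilins and reelin receptors, 20 fell and 0 rose at 400 nM in IMR-32, and 17 of the 21 above 7. FLRT3, an adhesion ligand of latrophilins and teneurins in a gene of 14.6 kb, had a log2 change of −3.41 ± 0.64, VLDLR, a reelin receptor in a gene of 38.3 kb, one of −2.87 ± 0.38, and ADGRL2, a latrophilin in a gene of 688 kb, one of −3.41 ± 0.68 (adjusted p = 0.0174 for each). Of 51 measured family relatives 17 fell and 0 rose, and 16 of the 31 above 7. MAGI3, the relative of MAGI2 with 295 kb, had −2.81 ± 0.54 (adjusted p = 0.0174), PDE4A, the relative of PDE4D with 52.9 kb, −1.98 ± 0.43 (adjusted p = 0.0175), ESRRA, the relative of ESRRG with 11.2 kb, −1.89 ± 0.41 (adjusted p = 0.0175) and FBRSL1, the relative of AUTS2 with 95.0 kb, −1.32 ± 0.33 (adjusted p = 0.0201). Against these counts stand 39.0% of all genes and 62.0% of the genes above 7. In Kelly at 400 nM 0 of the 34 partners and 0 of the 51 relatives were called, with 1 and 2 lower at an unadjusted p under 0.05.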

How the data were processed

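The authors deposited 1 table of linear intensities for 49495 probe sets on 12 arrays. Per the submitters' processing notes the tools were MAS5 and, under R 3.1.3, the affy package, and per the study's methods the arrays were rescaled with a loess fit on the ERCC spike-in probes. That scaling was kept, since it decides whether a shift shared by most genes is seen. Deposited intensities were converted here to log2 without a pseudocount or a filter on low values. Gene symbols came from the platform annotation, brought up to date by gene identifier, and the 45278 with 1 symbol gave 18244 genes after the highest-mean probe set was kept for each. The 1333 probe sets with several symbols, 100 ERCC rows and 102 array control rows were left out.

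Groups and replicate numbers came from the labels. The means of the 6 groups were fitted over all 12 arrays by limma 3.58.1 (lmFit and eBayes, R 4.3.3), with 6 residual degrees of freedom. Tests were two-sided, at an FDR of 0.05 over all genes. The fit was also run on simulated data whose noise was independent between genes. Those data lacked the array-wide differences seen here, so that run does not bear on the calls. The members, role groups and lists of partners and relatives were chosen with earlier results of these data known. Members above 7 in DMSO of at least 1 line or called in a contrast are given in full and others by role. Alternatives were median centring, quantile normalization, the mean of all probe sets, only genes above the median of all rows (6.33), trend and robust options, only the arrays of the comparison, a replicate block, leaving out each array, and a level of 8 in place of 7. Added after seeing the data were leaving out 3 arrays, leaving out their partners, and a level from all arrays of the line. Figures were drawn with matplotlib 3.10.9.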

Additional observations from a re-analysis of the deposited data

Results flagged for a closer look

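In 3 of the 40 genes both 400 nM arrays lay beyond both DMSO arrays in opposite directions in the 2 lines. CSMD1 was higher in Kelly and lower in IMR-32, a difference between the changes of 1.27 ± 0.30 on the log2 scale (limma, adjusted p = 0.449). CNTN4 was higher in Kelly and lower in IMR-32, with a difference of 0.61 ± 0.39 (adjusted p = 0.469). KCNIP4 was lower in Kelly and higher in IMR-32, with a difference of −0.83 ± 0.51 (adjusted p = 0.462). The differences were tested and none was called. All 3 genes lay below 7 in DMSO in both lines. Over all 18244 genes, both 400 nM arrays lay below both DMSO arrays in 13977 in IMR-32 and above in 494. In Kelly these counts were 8912 and 1690, and opposite directions in the 2 lines were not counted over all genes. Of the other probe sets of CSMD1, 0 of 2 had its sign in Kelly and 1 of 2 in IMR-32. For KCNIP4 3 of 3 had its sign in Kelly and 0 of 3 in IMR-32, and for CNTN4 1 of 1 in both lines.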

How the results depend on the processing

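Depth here is signal over background: 21 of the 40 genes lay below 7 in both lines, and 2 arrays per group give each mean. For IMR-32 at 400 nM, leaving out 1 of its 4 arrays gave 0 members called, a fit to these 4 arrays alone 19, and leaving out the 3 arrays or their partners 22 each, all lower, where 57.9% of all genes were. The median of members above 7 there was −1.94 at a level of 8 (9 genes), −1.19 at a level of 7 over all arrays of the line (11 genes), −0.056 after median centring, 0.18 after quantile normalization, −0.95 with the mean of all probe sets, −1.005 with only genes above the median of all rows (13 genes), and −1.33 to −1.03 with 1 array left out. For Kelly against IMR-32 in DMSO, 15 members (3 lower, 12 higher) were called after centring, where 4.75% of all genes were lower and 4.48% higher. After quantile normalization 11 (1 and 10) were called, where 4.83% and 4.68% of all genes were. The 1 lower gene there was not LSAMP, which lost its call. With the mean of all probe sets 8 (3 and 5) were called, where 3.73% and 2.18% were. With only the arrays of the comparison, without the 3 arrays and without their partners 21 were called, 8 lower and 13 higher. In the last 2 of these settings 19.0% of all genes were lower and 7.22% higher. With 1 DMSO array left out calls were fewer, among members and among all genes. For the difference between the lines, 4 higher were called with only the arrays of the comparison, where 11.4% of all genes were. Without the 3 arrays 2 lower and 7 higher were called, where 1.39% and 14.1% of all genes were. Without their partners 10 higher were called, where 33.3% of all genes were. Without the 3 arrays or without their partners, 18 and 2 were called in Kelly at 400 nM, counting both directions. In Kelly at 100 nM these counts were 1 and 18. The 1 was higher, and most of the 18 at each dose were lower. In IMR-32 at 100 nM 13 and 0 were called, where 43.3% and 0% of all genes were lower. For the dose step in IMR-32 2 and 16 were called, mostly lower. For the dose step in Kelly 9 were called without the 3 arrays, all lower, and 12 without their partners, all higher. The calls of the Kelly step thus reversed direction between these settings, among members and mostly so among all genes. With 1 array left out, 0 to 8 were called in IMR-32 at 100 nM and 0 to 8 for its dose step, where 0% to 27.5% and 0% to 32.6% of all genes were lower. After median centring the change at 400 nM turned sign in IMR-32 for CNTNAP2 (0.50), CTNNA2 (0.64), DAB1 (0.077), DPP6 (0.043), FHIT (0.69), RBFOX1 (0.20), SDK1 (0.35), ROBO1 (0.037), ERBB4 (0.48), ASTN2 (0.058) and TENM2 (0.42), and in Kelly for GRID1 (0.33), LSAMP (0.27) and SDK1 (0.039). After quantile normalization it turned in IMR-32 for CNTNAP2 (0.90, then called), CTNNA2 (1.06), DPP6 (0.21), FHIT (0.60), LSAMP (0.30), RBFOX1 (0.39), SDK1 (0.77), ROBO1 (0.16), ASTN2 (0.52) and TENM2 (0.39), and in Kelly for DPP6 (0.054), GRID1 (0.56), LSAMP (0.24), RBFOX1 (0.079), SDK1 (0.27) and TENM2 (0.11). KCNIP4 turned in IMR-32 with the mean of all probe sets (−0.32). In Kelly at 400 nM with 1 array left out, values ran from −1.47 to 0.30 for CTNNA2, from −0.24 to 0.035 for GRID1, from −0.071 to 0.14 for ASTN2 and from −0.45 to 0.13 for LSAMP. CTNNA2 (0.30), GRID1 (0.035) and ASTN2 (−0.071) turned without replicate 1 of that group, and likewise without the partners, and LSAMP (0.13) without replicate 2 or without the 3 arrays. The cause was not tested. The labels do not say that replicate numbers pair arrays, and replicate differences of 2 groups correlated from −0.78 to 0.26 in Kelly and from 0.16 to 0.27 in IMR-32, so the numbers were taken as names. With the replicate number as a block, 8 members were called lower in IMR-32 at 400 nM, where 31.7% of all genes were. Between the lines in DMSO 1 was called lower and 3 higher, where 2.23% and 1.36% of all genes were. No count of called members moved by over 1.5 times. At an unadjusted p under 0.05 the block gave 1 lower in place of 3 in Kelly at 400 nM, where 5.49% of all genes were. It gave 1 in place of 6 in Kelly at 100 nM, where 7.84% of all genes were lower. In IMR-32 at 100 nM it gave 2 in place of 1, where 5.35% were lower. The 1 gene of all called for the dose step in IMR-32 was no longer called.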
